A study of Mus musculus with 12 samples.

Results

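Cholesterol synthesis and its regulation were followed through 30 genes in the cerebellum of the young mouse. The 30 genes were named by their known function and hold 20 enzymes of synthesis, 5 genes of sterol sensing, 3 genes of transport, esterification and hydroxylation, and 2 nuclear receptors for oxysterols. Each is 1 of the 24421 entries of the deposited expression table, and 30 of 30 were among the 15464 genes with enough signal to be tested. Other enzymes and receptors of sterol metabolism are not analysed here.

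Cholesterol is made from acetyl-CoA in a long chain of reactions that passes through mevalonate, isoprenyl diphosphates and squalene to lanosterol, whose rings are then remodelled into cholesterol. The genes for these enzymes are switched on by sterol regulatory element-binding proteins, which are held in the endoplasmic reticulum while sterol is plentiful and are carried out of it by the escort protein Scap when sterol runs low. Because the blood-brain barrier keeps out circulating lipoproteins, the brain makes its own cholesterol, with oligodendrocytes using it for myelin and astrocytes known as suppliers to neurons.

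RNA was sequenced from GFP-positive cells that had been sorted by flow cytometry out of the cerebellum of Aldh1l1-GFP mice on postnatal day 1 (P1) and at P7, P14 and P28, with 3 libraries per age. All groups carried the same reporter, were untreated and were kept on the C57/BL6J background, with both sexes used, and the label that differed between them was age. The sample titles give neither the sex of a library nor whether the ages were processed together, so age cannot be told apart from these. The reporter marks cells in which the promoter of Aldh1l1, a folate enzyme gene of astrocytes, is active or was active recently enough for GFP to persist. Nothing states that the 3 libraries of a time point came from separate animals, so p-values measure the spread between these samples, which may be technical.

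Between 6399499 and 14733985 reads per library fell on genes. All values below are normalized counts, that is, reads divided by 1 size factor per library, and 3 reads in a library corresponded to between 1.846 and 4.384 of these units, for counting error only. The labelled cell type was checked against 10 astrocyte markers, whose summed level was 59410 to 74420 in the P1 libraries, 29290 to 53550 in those of P7, 155000 to 191100 in those of P14 and 358100 to 419100 in those of P28. Of these 10 markers, 2 rose and 6 fell from P1 to P7, 8 rose from P7 to P14, 8 rose from P14 to P28, and 9 rose and 1, Aldh1l1, fell from P1 to P28. Markers of oligodendrocytes and myelin, also 10 genes, summed to 1689 to 2784 in the P1 libraries and to 23400 to 35710, 355300 to 402600 and 106300 to 147500 in the later groups, so that at P14 they stood above the astrocyte markers in every library. Of the oligodendrocyte markers, 9 rose from P1 to P7, 10 rose from P7 to P14, 8 fell from P14 to P28, and 10 rose from P1 to P28. None of these 10 genes was at 0 in all libraries of an age. In bulk samples fewer cells of a type and less RNA per cell cannot be told apart.

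Of the other marker lists, 5 genes of dividing cells summed to 7183 to 13230 in the P1 libraries, 17390 to 23320 in those of P7, 583.2 to 1108 in those of P14 and 16.51 to 77.45 in those of P28, and all 5 fell from P7 to P14. The 6 neuronal markers summed to 1906 to 4997, 6796 to 8309, 21650 to 39530 and 13110 to 17650 in the same order, with 3 that rose and 1 that fell from P7 to P14. Over the 12 libraries, 4 granule neuron genes summed to 92.88 to 14520, with Gabra6 at 0 in every P1 library, 4 genes of oligodendrocyte precursors to 1397 to 6850, 4 of Purkinje cells to 224.5 to 759.1, 5 of microglia to 434.7 to 2650 and 4 of endothelium to 356.2 to 6734. The highest endothelial sum was that of P7 replicate 2, with Kdr at 3019 against 742.9 and 495.3 in the other P7 libraries. P7 replicate 2 also had the fewest reads, 6399499, and the lowest astrocyte marker sum, 29290.

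The 30 genes were read in nearly every library, and the enzyme step that makes HMG-CoA stood far above the rest. Per kilobase of merged exons, and averaged over the 12 libraries, Hmgcs1, the cytosolic HMG-CoA synthase, was at 1330 normalized counts, ahead of Insig1, a sterol sensor of the endoplasmic reticulum, at 535. Squalene synthase (Fdft1) at 497, lanosterol demethylase (Cyp51) at 457, isopentenyl diphosphate isomerase (Idi1) at 384 and squalene epoxidase (Sqle) at 300 followed on the same scale. The lowest levels per kilobase were those of the liver X receptor Nr1h3 at 10.0, the sterol reductase Tm7sf2 at 20.3, the sterol carrier Stard4 at 25.8, Insig2 at 28.8 and the neuronal sterol hydroxylase Cyp46a1 at 30.4. A value of at least 10 normalized counts was reached in every library by 28 of the 30, the exceptions being Tm7sf2 with 11 libraries and Nr1h3 with 8. Exons of Ggps1, Fdft1, Lss, Cyp51 and Srebf1 overlap a gene on the other strand, by 109 bases (Srebf1 with Rai1) to 774 bases (Fdft1 with Ctsb), and without strand in the counting their reads there cannot be told apart.

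Summed over the 20 enzymes of synthesis, the level was lowest at P7 and highest at P14. It was 19420 ± 2881 (mean ± SD, n = 3) in the P1 libraries, which lay between 16120 and 21450. At P7 it was 16320 ± 1706 (n = 3), between 14370 and 17520, and at P14 25610 ± 3926 (n = 3), between 21110 and 28300. The P28 libraries were close together, at 21080 ± 564 (n = 3), between 20510 and 21630. The P14 libraries were all above the P7 libraries, whereas those of P1 and P7, and those of P14 and P28, overlapped. Hmgcs1, the most abundant enzyme, weighs most in these sums, so each gene is also described on its own.

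**Figure D1:**
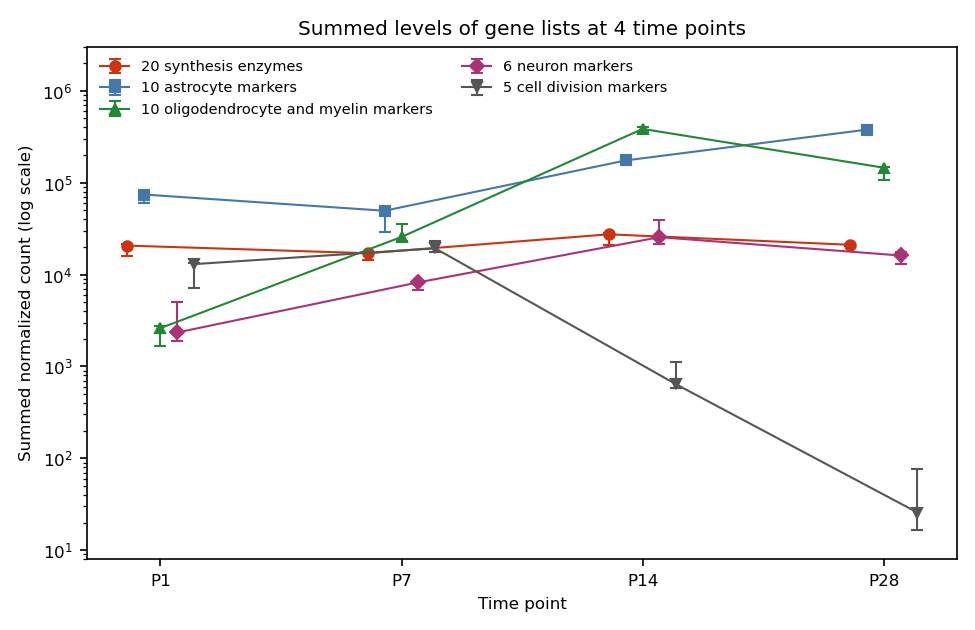
Summed normalized counts per library for the 20 enzymes of cholesterol synthesis and for marker lists of cell types, by postnatal age on a log axis. Symbols are the medians of 3 libraries and bars run from the lowest to the highest library. The enzyme sum lay at 14370 to 17520 at P7 and 21110 to 28300 at P14, while the oligodendrocyte marker sum went from 23400 to 35710 at P7 to 355300 to 402600 at P14.

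Counted by their highest mean, 13 of the 30 members peaked at P14, 9 at P28, and 4 each at P1 and P7. Their lowest mean was that of P7 for 16, of P28 for 7, of P1 for 5 and of P14 for 2. The same counts over all genes are not given here, so these stand without a background. The map of levels relative to each gene's own mean shows this low row of P7 values in Srebf1, Scap, Soat1 and Hmgcs1, and the opposite pattern in Lbr, whose P7 libraries were its highest.

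**Figure D2:**
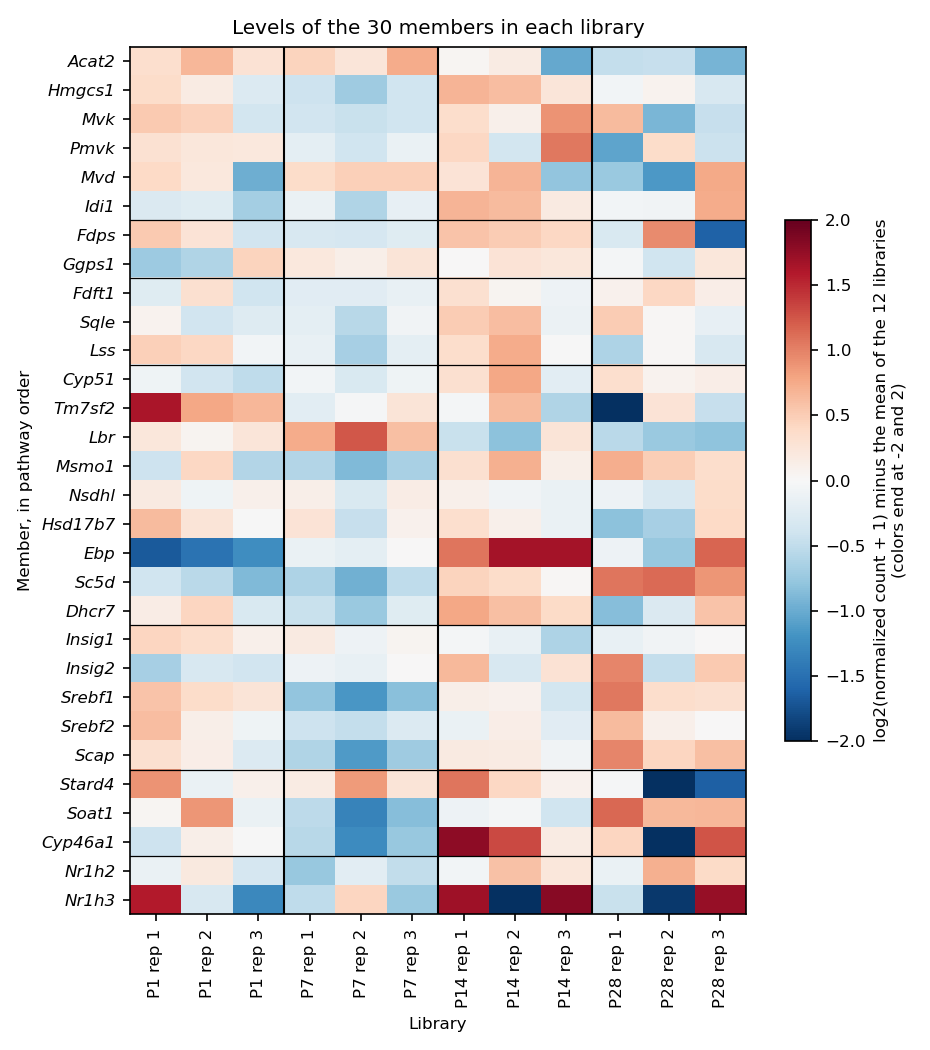
Level of each of the 30 genes in each of the 12 libraries, as log2(normalized count + 1) minus the gene's mean over the libraries; rows are genes in pathway order and columns are libraries by age. Sc5d went from 560.4 to 784.4 normalized counts at P1 to 1908 to 2289 at P28, and Srebf1 was at 515.7 to 667.2 at P7.

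The question put to each gene was whether its level differed between ages by more than the spread between libraries. Changes are log2 fold changes of the value + 1, fitted with limma in 1 model of the 12 libraries, and a gene is said to have risen or fallen where its Benjamini-Hochberg adjusted p over the 15464 genes tested was under 0.05. From P1 to P7, 0 of the 30 members rose and 3 fell, against 3.47% of all genes tested that rose and 4.24% that fell. At an unadjusted p under 0.05, 1 member was higher in limma, and with adjustment edgeR called 0 and DESeq2 called 1, Ebp. From P7 to P14, 8 members rose and 1 fell, which is 26.7% and 3.33% of the 30, beside 10.8% and 10.0% of all genes. From P14 to P28, 2 rose and 2 fell, or 6.67% each, beside 5.68% and 8.76%. Over the whole span from P1 to P28, 4 rose and 3 fell, or 13.3% and 10.0%, beside 14.6% and 20.0%. The shares that rose from P7 to P14 and that fell from P1 to P7, the latter on 3 genes, lay above their backgrounds, and the others near or below them. Without P7 replicate 2 or P14 replicate 2 the 8 rises were 4, without P14 replicate 1 they were 5, as under scaling by library totals, and the 3 falls were 1 without P1 replicate 2 or P7 replicate 2. Shares of all genes called under these settings are not given here, so these changed counts stand without a background. Of the 30, 13 genes passed in at least 1 of the 4 comparisons and 17 in none. The share of all genes tested that passed in at least 1 is not given here, so the 13 stand without a background. The 4 comparisons share libraries, so they are not independent of each other.

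A second call rule, an unadjusted p under 0.05 with a log2 fold change over 0.75 in size, was also applied. From P1 to P7 it called 1 member higher (Ebp) and 3 lower, beside 6.94% and 7.27% of all genes. From P7 to P14 it called 10 higher, adding Mvk and Cyp46a1, and 1 lower, beside 13.1% and 13.1%. From P14 to P28 it called 1 higher and 3 lower, beside 7.83% and 16.3%, and from P1 to P28 2 higher and 4 lower, beside 15.6% and 23.8%.

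Over the whole list the log2 fold changes had a median of -0.30 from P1 to P7, 0.66 from P7 to P14, -0.32 from P14 to P28 and -0.05 from P1 to P28. All genes tested had medians of 0.04, -0.09, -0.12 and -0.24. Single libraries weighed on these medians. From P1 to P7 the members' median was -0.17 without P1 replicate 1 and -0.50 without P1 replicate 3, and from P14 to P28 it was -0.20 without P14 replicate 1, -0.16 without P14 replicate 2 and -0.14 without P28 replicate 2. From P1 to P28 it lay near 0 and was above 0 without P1 replicate 1 or P28 replicate 2 (0.17). In the P7 to P14 step 23 of the 30 members lay above 0 and 7 below, with 14 of the 20 enzymes above 0, and 9 of the other 10 genes. Of the 15464 genes tested, 7125 lay above 0 and 8338 below in that step. When libraries were scaled by their totals alone, the median of all genes moved to 0.10, -0.34, -0.35 and -0.66. The members' medians then were -0.24, 0.40, -0.56 and -0.48, a shift they share with all genes by construction. The split of calls under library totals was 0 higher and 3 lower, 5 and 3, 0 and 5, and 1 and 8 in the 4 comparisons. The shares of all genes called under this scaling are not given here, so these counts stand without a background.

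**Figure D3:**
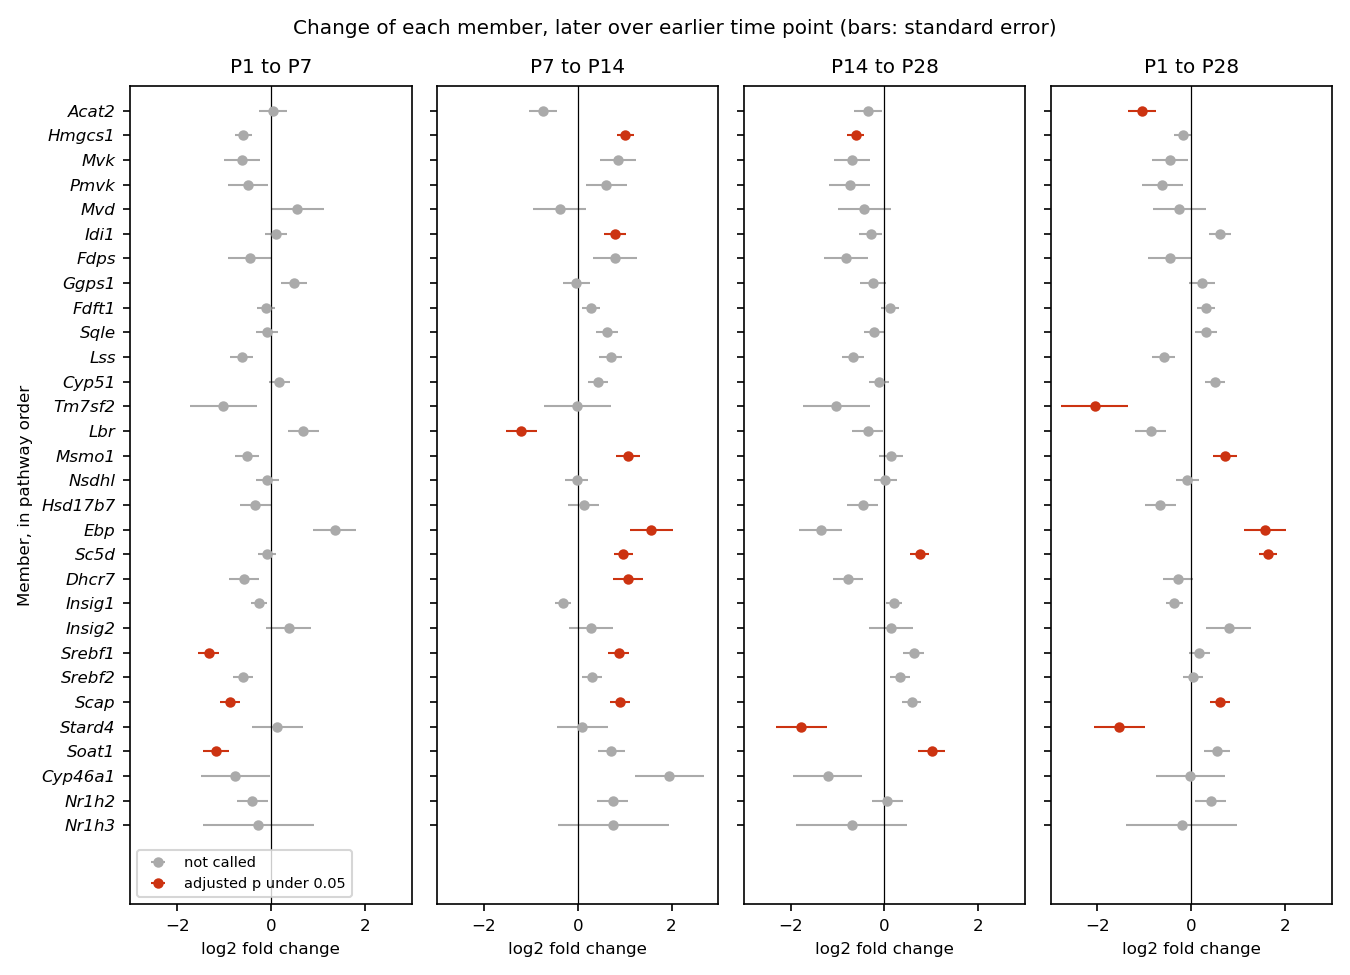
Log2 fold change of each of the 30 genes in the 4 comparisons, later over earlier age, with the standard error from limma as the bar; genes are in pathway order and filled red where the adjusted p was under 0.05. From P7 to P14, 23 of 30 points lie right of 0 and 8 of these passed the test, while Lbr passed on the left. Of all 15464 genes tested, 7125 had a change above 0 in that step.

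Promoters of the members were compared with those of other genes because the sterol-responsive genes are known to carry binding sites for sterol regulatory element-binding proteins together with sites for the general factors NF-Y and Sp1. RefSeq promoter windows on GRCm38.p6, from 250 bases before to 50 after the start, were at hand for 26 of the 30 members, and Fdps, Fdft1, Sqle and Stard4 had none. The NF-Y box CCAAT, searched on both strands, was found in 22 of the 26 (84.6%) and in 16 of the 17 enzymes with a window (94.1%), beside 41.1% of 27025 genes with a window and 42.4% of the 11566 among them that were tested. The GC box GGGCGG, to which Sp1 binds, was found in 22 of the 26 (84.6%), beside 38.2% of all genes and 66.4% of those tested. The sterol regulatory element core TCACNCCAC was found in Hmgcs1 alone (3.85% of the 26), beside 1.44% of all genes. A gene with several starts had several windows and was counted if any of them held the letters. Counted by window, the NF-Y box was in 65.7% of the members' 35 windows, beside 37.4% of all 32851. The GC box was in 74.3% of the members' windows, beside 35.7% of all. Window shares for the tested genes alone are not given here, and by gene the GC box was more frequent among those (66.4%) than among all (38.2%). All of these counts are letter matches in a fixed window and were not tested as binding sites. The 200 bases before the start are shown, 5′ to 3′ on the gene's strand, for the 3 enzymes whose rise from P7 to P14 passed under every alternative, and for Lbr, the member that fell in that step. Capitals mark the sterol regulatory element core and the NF-Y box in either orientation (CCAAT or ATTGG). The windows were chr13:119690151-119690350 on the plus strand for Hmgcs1, and on the minus strand chr8:64733579-64733778 for Msmo1, chr9:42264301-42264500 for Sc5d and chr1:181842402-181842601 for Lbr.
Hmgcs1: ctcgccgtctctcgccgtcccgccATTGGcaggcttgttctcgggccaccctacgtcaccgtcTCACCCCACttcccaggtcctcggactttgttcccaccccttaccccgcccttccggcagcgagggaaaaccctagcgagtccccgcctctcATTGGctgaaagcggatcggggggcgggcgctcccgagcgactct
Msmo1: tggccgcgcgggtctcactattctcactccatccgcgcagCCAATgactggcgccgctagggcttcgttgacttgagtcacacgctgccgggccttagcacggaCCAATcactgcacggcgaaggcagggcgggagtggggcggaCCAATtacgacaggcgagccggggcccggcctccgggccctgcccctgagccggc
Sc5d: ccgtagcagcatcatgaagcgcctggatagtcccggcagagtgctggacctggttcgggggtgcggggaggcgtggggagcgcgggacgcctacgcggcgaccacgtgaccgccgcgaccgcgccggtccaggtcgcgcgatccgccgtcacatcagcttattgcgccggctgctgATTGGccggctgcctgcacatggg
Lbr: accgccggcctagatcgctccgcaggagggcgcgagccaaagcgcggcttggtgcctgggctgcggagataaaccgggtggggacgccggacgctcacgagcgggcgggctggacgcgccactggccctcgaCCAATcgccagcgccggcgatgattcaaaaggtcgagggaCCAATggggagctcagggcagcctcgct
Hmgcs1 held 2 NF-Y boxes and 1 sterol regulatory element core in these bases, Msmo1 held 3 NF-Y boxes, Sc5d held 1 and Lbr held 2. The box was thus present both in enzymes that rose from P7 to P14 and in the one that fell.

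Among the 6 enzymes that lead from acetyl-CoA to isoprenyl diphosphate, Hmgcs1 and Idi1 rose from P7 to P14. Hmgcs1 (chr13:119690379-119708260, GRCm38) was at 7552, 6582 and 4841 normalized counts at P1, 4413, 3587 and 4467 at P7, 9413, 8988 and 6920 at P14, and 5638, 6158 and 4710 at P28. The 3 P14 libraries were its highest but for 1 P1 library above the lowest of them, and the P7 libraries were all below those of P14 and P28. The rise from P7 to P14 was 1.02 ± 0.19 (log2, SE, adjusted p = 0.00132), and it passed under every alternative tried. It fell by 0.61 ± 0.19 from P14 to P28 (adjusted p = 0.0407), close to the threshold, with no overlap between the libraries. That call was lost without P7 replicate 1 or 3 (0.0568), P14 replicate 1 (0.137) or 2 (0.118), or P28 replicate 1 (0.057) or 3 (0.11), with no filter on low values (0.0558), and when only P14 and P28 were fitted (0.0889). In size, the P14 to P28 change was also under the limit of the second call rule. From P1 to P7 the change of Hmgcs1 was -0.59 with an adjusted p of 0.0735, and it passed in DESeq2 (0.0377) and without P1 replicate 3 (0.0232). Under library totals its P1 to P28 change of -0.62 passed (0.0138). A transcript annotated outside the table, Gm48342, was identical to Hmgcs1 over 462 bases, so that reads there cannot be assigned to 1 of them.

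Idi1 (chr13:8885501-8892451), which interconverts the isoprenyl building blocks, was at 1048, 1077 and 794.3 at P1, 1169, 842.8 and 1138 at P7, 2044, 1990 and 1450 at P14, and 1228, 1223 and 2139 at P28. Every P14 library was above every P1 and P7 library, while at P28 1 library was above all of P14 and the others were near the P7 level. The rise from P7 to P14 was 0.80 ± 0.24 (adjusted p = 0.0292). It was lost without P7 replicate 2 (0.123) or 3 (0.0569), without P14 replicate 1 (0.104) or 2 (0.103), and under scaling by library totals (0.0999). Between P1 and P28 the change of Idi1 was 0.61, which did not pass with the 12 libraries in limma and passed in edgeR (0.045) and DESeq2 (0.0413) and without P28 replicate 1 (0.0413) or 2 (0.0398). Idi1 has near-identical copies outside the table, such as Gm13502, identical over 684 bases, and Gm35570, 97.7% identical over 681 bases, which could hold some of its reads.

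Acat2 (chr17:12942890-12960747), the cytosolic thiolase at the head of the pathway, ran the other way. It was at 729.7, 916.7 and 711.0 at P1, 786.7, 684.5 and 965.8 at P7, 597.3, 648.5 and 285.6 at P14, and 416.5, 419.9 and 302.9 at P28. The P28 libraries were all below those of P1 and P7, and Acat2 fell by 1.05 ± 0.29 from P1 to P28 (adjusted p = 0.0125), which held under every alternative. Its P7 to P14 change was -0.74 and passed under library totals (0.0227). Reads of Acat2 could be shared with Acat3, whose transcript was 97.7% identical over 1477 bases and whose mean level was 107.1, and with part of Tcp1, 98.7% identical over 445 bases, since the counting of shared reads is not given in the sources used here.

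The mevalonate kinase Mvk, the phosphomevalonate kinase Pmvk and the decarboxylase Mvd passed in none of the 4 comparisons with the 12 libraries fitted in limma. Mvk lay between 158.0 and 553.8, Pmvk between 75.99 and 332.3, and Mvd between 54.26 and 205.6 over the 12 libraries. For Mvk the change from P7 to P14 was 0.86 (adjusted p = 0.14) and passed with only these ages fitted (0.024), and its P14 to P28 change was -1.13 without P28 replicate 1 (0.038). Its 3 P7 libraries, at 218.6 to 227.7, were close to each other while those of P28 ran from 158.0 to 464.7.

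In the step that joins isoprenyl units, neither Fdps, the farnesyl diphosphate synthase, nor Ggps1, which makes the geranylgeranyl form used for protein prenylation, passed in any comparison with the 12 libraries fitted in limma. Fdps ranged from 271.1 to 528.5 in the libraries of the first 3 ages, and at P28 it was at 287.9, 681.7 and 114.9, a 5.93-fold spread. Its change from P7 to P14 was 0.80 (adjusted p = 0.266) and passed with only these ages fitted (0.00734). Without P28 replicate 2, the highest P28 library, Fdps passed as lower from P14 to P28 (-1.46, 0.018) and from P1 to P28 (-1.10, 0.0327). For Fdps, annotated near-identical copies outside the table could hold some of its reads. Ggps1 was at 384.5, 418.7 and 863.2 at P1 and stayed between 482.4 and 768.0 in the later libraries, and without P1 replicate 3 its P1 to P7 change of 0.86 passed (0.0455).

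The 3 enzymes from farnesyl diphosphate to lanosterol all had positive P7 to P14 changes, none of which passed. Squalene synthase (Fdft1) lay between 1565 and 2758 over the 12 libraries, one of the narrower ranges. Squalene epoxidase (Sqle) was at 1404, 1098 and 1532 at P7 and at 2295, 2489 and 1496 at P14. Lanosterol synthase (Lss) was at 1041, 727.7 and 1017 at P7 and at 1473, 1951 and 1158 at P14, where every P14 library was above every P7 library, with a change of 0.70 and an adjusted p of 0.0523. It passed under 10 alternatives, among them edgeR (0.0453), DESeq2 (0.0317) and the fit without P14 replicate 3 (0.0311). Lss also passed as lower from P14 to P28 under library totals (0.0169) and without P28 replicate 2 (0.0408), and from P1 to P28 under library totals (0.00286) and without P1 replicate 3 (0.0487) or P28 replicate 2 (0.0354). For Sqle the P7 to P14 change of 0.62 was 0.84 without P14 replicate 3 and passed (0.0235), and for Fdft1 the P1 to P28 change of 0.32 was 0.53 without P1 replicate 2 and passed (0.0344).

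Ring conversion, the work of 9 enzymes among the 30 members, held 6 of the 13 members called in at least 1 comparison, a count without a background. Of the 9, 4 rose and 1 fell from P7 to P14, beside 10.8% of all genes tested that rose and 10.0% that fell. From P14 to P28 1 rose, beside 5.68% of all genes. From P1 to P28 3 rose and 1 fell, beside 14.6% and 20.0%. Called in none with the 12 libraries were the demethylase Cyp51, the dehydrogenase Nsdhl and the reductase Hsd17b7.

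Sc5d (chr9:42251595-42264256), the sterol desaturase that acts late in the pathway, rose in both of the later steps. It was at 784.4, 715.2 and 560.4 at P1, 674.4, 535.3 and 727.9 at P7, 1413, 1339 and 1060 at P14, and 2176, 2289 and 1908 at P28. The P1 and P7 libraries overlapped, every P14 library was above both, and every P28 library was above those of P14. Its changes were 0.98 ± 0.20 from P7 to P14 (adjusted p = 0.00244), 0.75 ± 0.20 from P14 to P28 (adjusted p = 0.0211) and 1.64 ± 0.20 from P1 to P28 (adjusted p = 2.17e-05), the last a 3.11-fold rise. The first and the last held under every alternative, and the P14 to P28 rise was lost without P14 replicate 3 (0.0867), under scaling by library totals (0.0856) and when only P14 and P28 were fitted (0.0548). At 0.7478, the P14 to P28 change was also just under the size limit of the second call rule. No other member was called higher in both the P7 to P14 and the P14 to P28 step.

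Msmo1 (chr8:64718139-64733792), a methyl sterol oxidase, was at 543.9, 970.3 and 486.1 at P1, 484.1, 395.2 and 465.9 at P7, 905.5, 1185 and 786.2 at P14, and 1198, 1021 and 929.0 at P28. Every P7 library was below every other library, and the P14 and P28 libraries overlapped. Its rise from P7 to P14 was 1.08 ± 0.26 (adjusted p = 0.0078) and held under every alternative. Between P1 and P28 the rise was 0.72 ± 0.26 (adjusted p = 0.0438), with 1 P1 library inside the P28 range. That call was lost without P1 replicate 1 (0.149) or 3 (0.179), any P7 replicate (0.0518 to 0.0588), P14 replicate 1 (0.0569) or P28 replicate 1 (0.109) or 2 (0.0663), in edgeR (0.0589) and DESeq2 (0.055), with no filter (0.0542), with only P1 and P28 fitted (0.113), and under library totals, where the change was 0.28 (0.394). In size, the P1 to P28 change was also under the limit of the second call rule.

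Ebp (chrX:8185329-8193512), the sterol isomerase, had the largest change of the 8 genes that rose from P7 to P14. It was at 43.07, 49.3 and 58.31 at P1, 127.4, 121.7 and 140.3 at P7, 295.5, 444.3 and 443.1 at P14, and 130.1, 82.56 and 315.1 at P28. Levels at P1, P7 and P14 did not overlap from one age to the next, whereas the P28 libraries were spread from below the P7 level to within the P14 range. The rise was 1.57 ± 0.46 from P7 to P14 (adjusted p = 0.0241) and again 1.57 ± 0.46 from P1 to P28 (adjusted p = 0.016). The first was lost without any 1 of the P7 replicates (0.0647 to 0.0765) or without P14 replicate 2 (0.0859) or 3 (0.0797), and the second without P1 replicate 1 (0.0549), under library totals (0.0536) and with only P1 and P28 fitted (0.114). The P1 to P7 change of Ebp, 1.36 with every P7 library above every P1 library, had an adjusted p of 0.093 and passed without P28 replicate 2 (0.0372) or 3 (0.023), in DESeq2 (0.0259) and with only P1 and P7 fitted (0.0104). For P14 to P28 the change was -1.36 (adjusted p = 0.0605), and it passed in DESeq2 (0.0455), under library totals (0.0278) and without P28 replicate 3, where it was -1.89 (0.00744).

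Dhcr7 (chr7:143823145-143848410), the reductase of the last step of one branch of the pathway, was at 552.5, 673.0 and 402.8 at P1, 365.5, 297.1 and 421.7 at P7, 851.5, 762.7 and 651.6 at P14, and 276.2, 409.3 and 743.8 at P28. The P14 libraries were all above those of P7, and P28 spanned both levels. The rise from P7 to P14 was 1.07 ± 0.32 (adjusted p = 0.0291), and it was lost without P7 replicate 1 (0.0749) or 2 (0.108), P14 replicate 1 (0.0967) or 2 (0.0813), and under library totals (0.0685). From P14 to P28 the change of Dhcr7 was -0.78 (adjusted p = 0.122), and it passed under library totals (0.0372) and without P28 replicate 3, where it was -1.16 (0.0156). P28 replicate 3 was thus the highest P28 library for Ebp, Dhcr7 and Idi1.

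Tm7sf2 and Lbr encode related sterol reductases that can carry out the same reaction, and Lbr is also the lamin B receptor of the inner nuclear membrane. Lbr (chr1:181815335-181843046) was at 262.7, 233.6 and 267.3 at P1, 376.6, 532.7 and 343.4 at P7, 165.2, 126.9 and 269.3 at P14, and 154.9, 134.5 and 128.5 at P28. All P7 libraries were above all others, and 1 P14 library was at the P1 level. Lbr fell by 1.20 ± 0.33 from P7 to P14 (adjusted p = 0.0174), a call lost without P7 replicate 1 (0.0503) or 2 (0.1) or P14 replicate 1 (0.0532) or 2 (0.0756). Its P7 peak coincided with that of the dividing cell genes, whose summed level was 17390 to 23320 at P7 and at most 13230 at the other ages. The P1 to P28 change of Lbr, -0.87, passed in DESeq2 (0.0265), under library totals (0.007) and without P14 replicate 2 (0.0414) or 3 (0.0349) or P28 replicate 1 (0.0486), and its P1 to P7 change of 0.69 with only these ages fitted (0.0482). The part of dividing cells in the Lbr result was not tested.

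Tm7sf2 (chr19:6062821-6068373) was at 227.0, 125.7 and 115.9 at P1, 62.9, 71.98 and 86.82 at P7, 70.96, 113.2 and 47.78 at P14, and 8.768, 88.46 and 52.74 at P28. The P1 libraries were its highest and all lay above the P7 and P28 libraries. Tm7sf2 fell by 2.06 ± 0.71 from P1 to P28 (adjusted p = 0.0377). Without P28 replicate 1, at 8.768, the change was -1.11 (0.107), and the call was also lost without P1 replicate 1 (0.142), 2 (0.0683) or 3 (0.0656), without any 1 of the P7 replicates (0.0509 to 0.0532), in edgeR (0.08) and with only P1 and P28 fitted (0.126). Tm7sf2 shares 532 bases of exon on the same strand with Vps51, so that reads there cannot be assigned to 1 of these genes from the table. The pair did not move in parallel, with P7 to P14 changes of -1.20 for Lbr and -0.01 for Tm7sf2, though the difference between them was not tested.

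Cyp51, Nsdhl and Hsd17b7 had no call with the 12 libraries fitted in limma. Nsdhl was the flattest of the enzymes, at 342.0 to 554.5 over the 12 libraries. Cyp51 lay between 1380 and 3358, with its highest library at P14, and Hsd17b7 between 226.5 and 627.5. Without P14 replicate 3 the change of Cyp51 passed from P7 to P14 (0.69, 0.0269) and from P1 to P28 (0.50, 0.0411), and that of Hsd17b7 from P1 to P28 passed under library totals (-1.09, 0.0129) and without P28 replicate 3 (-1.04, 0.0133).

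**Figure D4:**
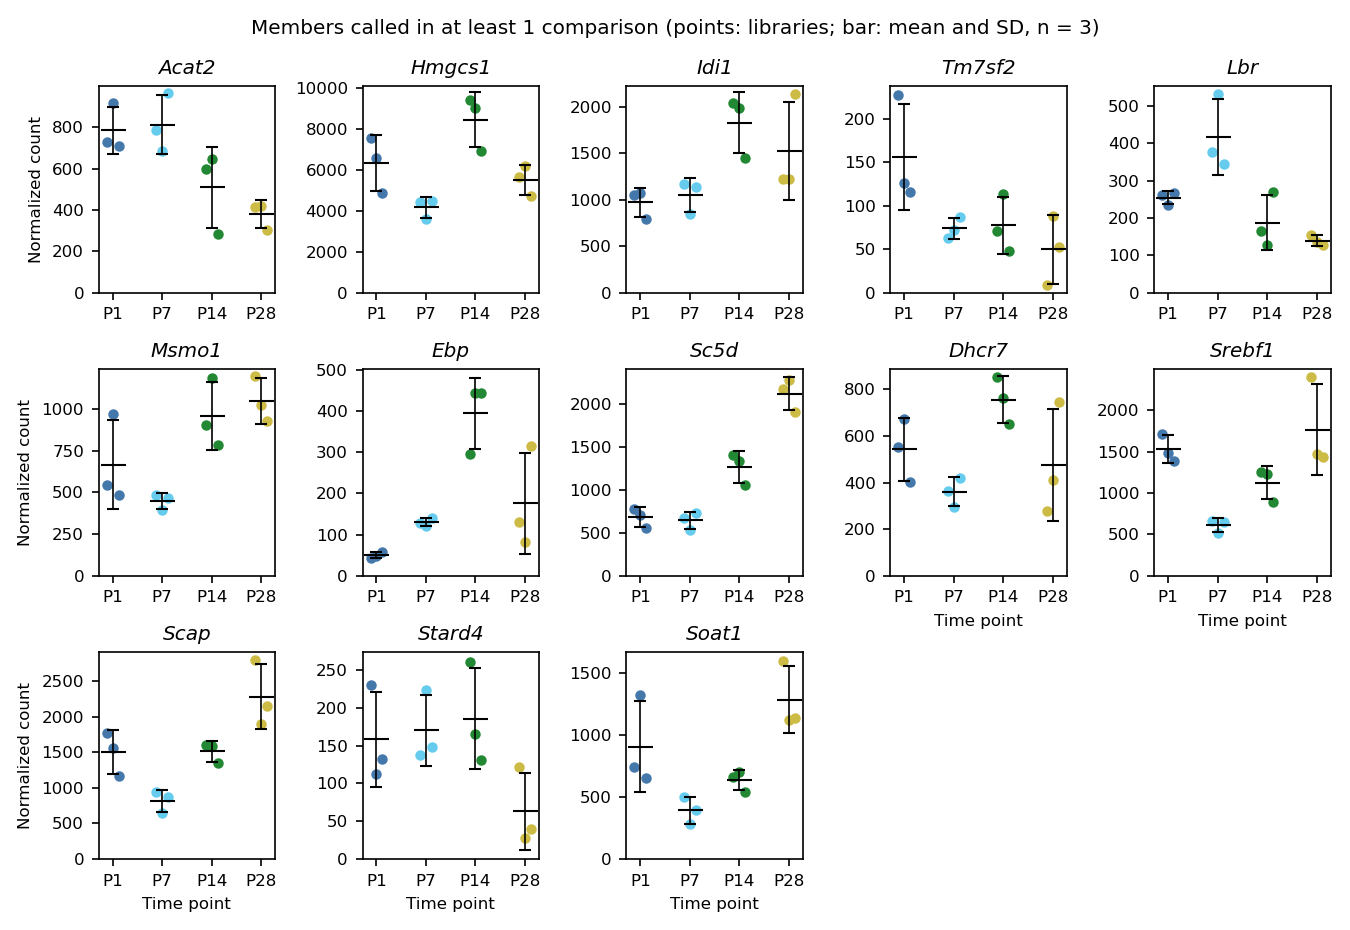
Normalized counts per library of members called in at least 1 comparison, by postnatal age, with each axis starting at 0; points are libraries and bars give the mean and SD (n = 3). Sc5d climbs from 535.3 to 727.9 at P7 to 1908 to 2289 at P28, and Srebf1, Scap and Soat1 have their lowest libraries at P7.

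Of the 5 genes of sterol sensing, Srebf1, Srebf2 and Scap had their lowest means at P7. Srebf1 (chr11:60199089-60222581) encodes the regulatory element-binding protein known mainly for fatty acid genes, and was at 1712, 1488 and 1383 at P1, 667.2, 515.7 and 648.0 at P7, 1252, 1225 and 892.7 at P14, and 2400, 1467 and 1431 at P28. Every P7 library was below every library of the other 3 ages. It fell by 1.33 ± 0.22 from P1 to P7 (adjusted p = 0.00212), which held under every alternative, and rose from P7 to P14 by 0.87 ± 0.22 (adjusted p = 0.0118). The rise was lost without P7 replicate 2 (0.0553), P14 replicate 1 (0.0521) or 2 (0.0524), and under library totals (0.0658). From P14 to P28 the change was 0.63 (adjusted p = 0.0745) with every P28 library above every P14 library, and it passed without P28 replicate 3 (0.0475) and in DESeq2 (0.0437).

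Scap (chr9:110333288-110384950), the escort, also fell and then rose. It was at 1776, 1554 and 1168 at P1, 936.3, 646.5 and 865.1 at P7, 1606, 1584 and 1346 at P14, and 2793, 1902 and 2150 at P28. Its P7 libraries were all below the rest, and its P28 libraries all above the rest. Scap fell by 0.87 ± 0.21 from P1 to P7 (adjusted p = 0.0191), rose from P7 to P14 by 0.90 ± 0.21 (adjusted p = 0.00658) and was 0.61 ± 0.21 higher at P28 than at P1 (adjusted p = 0.0361). The rise from P7 to P14 held under every alternative. The fall was lost without P1 replicate 1 (0.103) or 2 (0.0719) or P7 replicate 2 (0.1), and the P1 to P28 rise without P1 replicate 2 (0.0586) or 3 (0.158), P28 replicate 1 (0.121), with only P1 and P28 fitted (0.0859), and under library totals, where it was 0.17 (0.524). In size, the P1 to P28 rise was also under the limit of the second call rule.

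Srebf2, whose product is the main activator of the cholesterol enzyme genes, passed in no comparison. It was at 2155, 1515 and 1318 at P1, 1048, 1009 and 1160 at P7, 1276, 1534 and 1201 at P14, and 2175, 1511 and 1415 at P28. Its P7 libraries were below those of every other age, and the P1 to P7 change was -0.60 with an adjusted p of 0.113. Insig1, which retains the Scap complex, lay between 1062 and 2204 in all libraries. At P28 each Insig1 library was below each P1 library, with a change of -0.36 (adjusted p = 0.128), and under library totals the change of -0.80 passed (0.00218), as did that of -0.57 from P7 to P14 (0.0258). Insig2, at 59.06 to 185.6, was well below Insig1 per kilobase and its P1 to P28 change of 0.80 passed only without P28 replicate 2 (1.21, 0.044).

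Soat1 (chr1:156424525-156474331), which esterifies cholesterol for storage, fell and then rose. It was at 739.5, 1322 and 654.3 at P1, 498.4, 284.0 and 394.5 at P7, 664.0, 697.1 and 540.8 at P14, and 1596, 1122 and 1131 at P28. The P7 libraries were below all others, and the P28 libraries were above those of P14. Soat1 fell by 1.17 ± 0.28 from P1 to P7 (adjusted p = 0.02), then rose from P14 to P28 by 1.00 ± 0.28 (adjusted p = 0.0299). The fall was lost without P1 replicate 2 (0.101) or P7 replicate 2 (0.105) or 3 (0.0617), and the rise without any 1 of the P14 replicates (0.0554 to 0.107), without P28 replicate 1 (0.077), and under library totals (0.0767). Its P7 to P14 change of 0.72 passed with only these ages fitted (0.0394), and its P1 to P28 change of 0.55 was 0.86 without P1 replicate 2 and passed (0.0286).

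Stard4, a cytosolic sterol carrier that responds to sterol depletion, was lowest at P28. It was at 230.1, 112.2 and 131.8 at P1, 137.7, 223.8 and 148.1 at P7, 260.5, 165.0 and 131.4 at P14, and 121.3, 28.31 and 39.22 at P28. The P28 libraries were below all of P14 and P7, though 1 of them was within the P1 range. Stard4 fell by 1.77 ± 0.54 from P14 to P28 (adjusted p = 0.0408), as well as by 1.53 ± 0.54 from P1 to P28 (adjusted p = 0.0398). The first call was lost without any 1 of 10 libraries, all but P1 replicate 2 and P28 replicate 1 (0.0522 to 0.143), and the second without any 1 of 8, namely P1 replicates 1 and 3, the 3 P7 replicates, P14 replicate 2, and P28 replicates 2 and 3 (0.0519 to 0.162). Both were lost in edgeR (0.0767 and 0.0862) and with only the ages compared fitted (0.211 and 0.148), and the first also with no filter (0.0518).

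Cyp46a1, the hydroxylase through which neurons turn over cholesterol, had the largest P7 to P14 change of the 30 and did not pass. It was at 51.75, 31.41 and 44.96 at P7, 266.9, 193.6 and 85.79 at P14, and 103.8, 17.69 and 185.3 at P28. All P14 libraries were above all P7 libraries, with a change of 1.95 ± 0.73 (adjusted p = 0.0752), and the P28 libraries spread 10.5-fold. The change passed in edgeR (0.0439), in DESeq2 (0.0105), with at least 10 in every library (0.0493), with only P7 and P14 fitted (0.013), and without P28 replicate 2 (0.0105) or 3 (0.0365). Of the 6 neuronal markers 3 rose and 1 fell in this step, with a sum of 6796 to 8309 in the P7 libraries and 21650 to 39530 in those of P14, and their part in the Cyp46a1 values was not tested. The liver X receptors, which respond to oxysterols, passed in no comparison. Nr1h2 lay between 134.6 and 372.7, and Nr1h3 between 3.174 and 59.73 with up to an 18.8-fold spread among libraries of 1 age.

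The marker lists moved in different directions from P7 to P14, the step that held most calls, and all 5 genes of dividing cells fell. Of the smaller lists, 3 of 6 neuronal, 3 of 4 granule neuron, 2 of 4 Purkinje, 1 of 5 microglia and 0 of 4 endothelium markers rose. In addition, 1 neuronal marker fell, and of 4 oligodendrocyte precursor genes 1 rose and 1 fell. Between P7 and P14 the astrocyte marker sum went from at most 53550 to at least 155000 and that of oligodendrocytes from at most 35710 to at least 355300, with 8 of the 10 astrocyte and 10 of the 10 oligodendrocyte markers called higher. Neither list shows which cells carried the RNA of the enzymes, and the part of either cell type in the rise of Hmgcs1, Idi1, Msmo1, Ebp, Sc5d, Dhcr7, Srebf1 and Scap was not tested. From P14 to P28, when the oligodendrocyte sum dropped to 106300 to 147500 and that of astrocytes reached 358100 to 419100, Sc5d and Soat1 rose while Hmgcs1 and Stard4 fell.

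Genes around the pathway were described from lists of their own. Of all genes tested, 5.68% rose and 8.76% fell from P14 to P28, and 14.6% rose and 20.0% fell from P1 to P28. Of 10 genes for the processing of regulatory element-binding proteins and for sterol-dependent protein degradation, 1 rose and 1 fell from P14 to P28, and 1 rose and 2 fell from P1 to P28. Of the proteases that release the factors, Mbtps2 fell by 1.19 ± 0.31 from P7 to P14 (adjusted p = 0.0132), then rose from P14 to P28 by 1.36 ± 0.31 (adjusted p = 0.0113), and Mbtps1 fell by 1.00 ± 0.21 from P1 to P28 (adjusted p = 0.00198).

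Of 11 genes in the other branches from farnesyl and geranylgeranyl diphosphate, which serve protein prenylation, dolichol and ubiquinone, 1 passed. It rose from P7 to P14 and from P1 to P28, where 10.8% and 14.6% of all genes tested rose. Fnta, the subunit shared by the farnesyl transferase and a second prenyl transferase, rose from P7 to P14 by 1.31 ± 0.23 (adjusted p = 0.00103), from a mean of 239.1 to 594.6, and from P1 to P28 by 1.69 ± 0.23 (adjusted p = 7.6e-05). Of 9 genes of intracellular sterol transport, 1 rose from P1 to P7 (Gramd1b), 1 from P7 to P14 (Npc2) and 2 from P1 to P28 (Osbpl9 and Gramd1b). The shares of all genes that rose were 3.47%, 10.8% and 14.6% in these comparisons. Of 6 partners and targets of the liver X receptors, 1 fell from P1 to P7 (Rxra), 1 rose from P7 to P14, 1 fell from P14 to P28 and 2 fell from P1 to P28. The matching shares of all genes were 4.24%, 10.8%, 8.76% and 20.0%. Abcg1, a sterol exporter, rose from P7 to P14 by 1.16 ± 0.26 (adjusted p = 0.005) and fell by 2.32 ± 0.26 from P14 to P28 (adjusted p = 0.000242), with mean levels of 339.4, 305.7, 687.5 and 135.3 at the 4 ages.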

How the data were processed

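The 12 libraries held RNA of GFP-sorted cerebellar cells of Aldh1l1-GFP mice, 3 per age (P1, P7, P14, P28). Per the labels, reads were aligned to mm10 (GRCm38) with STAR (2.5.0a) and normalized with DESeq2 (1.30.1). How overlapping genes, shared reads and strand were treated is not given in the sources used here. The deposited values are a signal on the scale of counts, divided by the authors by 1 size factor per library. Dividing by the smallest step returned whole reads for 100% of values (tolerance 0.001), and these gave the depth, 6399499 to 14733985 reads per library, and served the count-based alternatives. Columns were matched to libraries by the names in the labels, with 0 left over, and all 12 names carry P28 whatever the age, so that the ages rest on the labels.

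The main test was limma (3.58.1, under R 4.3.3), applied to log2(value + 1) with a variance trend and 1 mean per age, over the 15464 of 24421 entries that reached 10 or more in 3 or more libraries, and p-values were Benjamini-Hochberg adjusted over these. The threshold was 0.05. The alternatives were edgeR (4.0.16, quasi-likelihood, TMM) and DESeq2 (1.42.0) on recovered reads, library totals, TMM in limma, pseudocounts of 0.1 and 10, no filter, at least 10 in every library, only the ages compared, the replicate number as a block, an unadjusted p under 0.05 with a log2 fold change over 0.75, and leaving out each library. Simulated counts served to check the tests. Same-numbered libraries of different ages had deviations correlating at -0.03 to 0.14 (18 pairs), so the numbers were not taken to pair libraries.

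Members, lists and alternatives were chosen with earlier results of these data known. Some single-gene results are not reported here. Members called in a comparison are described by library, the others by range. Levels per kilobase used merged exons of GENCODE M21, and promoters came from RefSeq (GRCm38.p6). Python 3.11.15 was used for the summaries. Near-identical transcripts were sought at 90% identity over at least 300 bases.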

Additional observations from a re-analysis of the deposited data

How the results depend on the processing

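Of the 23 called changes of members, 7 passed under every alternative and 16 were lost under at least 1, with 0 reversed. Against 0 higher and 3 lower from P1 to P7, DESeq2 called 1 higher and 4 lower, the fit of only the ages compared 2 higher, and the unadjusted threshold 1 higher. Against 8 and 1 from P7 to P14, library totals gave 5 higher and 3 lower and the ages compared alone gave 13 higher. Against 2 and 2 from P14 to P28, library totals gave 0 higher and 5 lower, the ages compared alone 1 higher and 0 lower, the unadjusted threshold 1 higher, edgeR 1 lower and no filter 0 lower. Against 4 and 3 from P1 to P28, library totals gave 1 higher and 8 lower, the ages compared alone 1 higher and 1 lower, the unadjusted threshold 2 higher and edgeR 1 lower. The fit of only the ages compared has fewer libraries, and the cause of the changed counts was not tested for any of these settings. Shares of all genes called are given for the main setting and the unadjusted threshold only, so the other counts stand without a background.

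Leaving out 1 library at a time gave 0 to 1 higher and 1 to 4 lower from P1 to P7, 4 to 10 and 0 to 1 from P7 to P14, 0 to 3 and 0 to 3 from P14 to P28, and 2 to 5 and 1 to 4 from P1 to P28. The 8 rises from P7 to P14 were 4 without P7 replicate 2 or P14 replicate 2 and 5 without P14 replicate 1. The 3 falls from P1 to P7 were 1 without P1 replicate 2 or P7 replicate 2. Counts with a library left out also stand without a background. With the replicate block the counts were 0 and 3, 8 and 1, 2 and 2, and 4 and 3, and no count of calls changed. Depth was not tested as a limit. With 3 libraries per age, genes with a wide spread within an age, such as Nr1h3, were measured with low precision.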

Other observations

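Fatty acid synthesis and desaturation, the neighbouring branch of lipid synthesis and also a target of the regulatory element-binding proteins, was described by 11 genes. Of these, 5 fell from P1 to P7, 5 rose and 1 fell from P7 to P14, 3 rose and 1 fell from P14 to P28, and 5 rose and 1 fell from P1 to P28, beside 4.24% of all genes tested that fell in the first step, 10.8% that rose and 10.0% that fell in the next, 5.68% and 8.76% in the last, and 14.6% and 20.0% over the whole span, with median log2 fold changes of -0.74, 0.63, 0.57 and 0.76. The desaturase Scd2 had mean levels of 13880, 5465, 15310 and 23350 normalized counts at P1, P7, P14 and P28, falling by 1.36 ± 0.20 (log2, SE, adjusted p = 0.000974 in limma) and then rising by 1.51 ± 0.20 (adjusted p = 0.000115). Scd1 had means of 935.5, 388.3, 1613 and 2424, with a fall by 1.24 ± 0.29 (adjusted p = 0.0175) and a rise of 2.10 ± 0.29 (adjusted p = 0.000142). Fads1 and Fads2, the desaturases of polyunsaturated fatty acids, both fell from P1 to P7, Fads1 from a mean of 3929 to 2134 (adjusted p = 0.0412) and Fads2 from 3828 to 1374 (adjusted p = 0.000671). From P14 to P28 they rose by 1.40 ± 0.25 (adjusted p = 0.00314) and 1.14 ± 0.22 (adjusted p = 0.00419). Acly, which supplies cytosolic acetyl-CoA to both branches, fell from P7 to P14 by 0.81 ± 0.22 (adjusted p = 0.0161), and the elongase Elovl6 rose by 0.62 ± 0.20 (adjusted p = 0.0436) in that step and fell by 1.11 ± 0.20 (adjusted p = 0.00349) in the next. The part of the changing marker levels in these values was not tested.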
